A study of Mus musculus with 40 samples.

Results

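Of the 40 RNA-seq libraries of mouse fat in the study, 20 carried the label for visceral fat, and 10 of those 20 stood out by a lymph node transcript. The 20 libraries were divided by the level of Glycam1, the gene for a mucin-like glycoprotein that high endothelial venules of lymph nodes secrete. The 10 libraries chosen by a Glycam1 level of at least 20 TPM were called Glycam1 rich and the remaining 10 Glycam1 poor. TPM, the usual length-corrected unit of RNA-seq, is a share of the RNA of a library, so a value says nothing of the amount of RNA per fat pad. Because Glycam1 set the groups, it is left out of the results below, and every difference between rich and poor libraries is given as a description. Calls from limma in that comparison serve only to count genes past a threshold.

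All tissue came from C57BL/6J mice, and the labels name no transgene or deletion in any group. The labels name 4 treatments of 5 libraries each: HFD (high-fat diet), HFD with drug, normal, and normal with drug. The study's design text names the drug as beta-carotene, a carotenoid from which the body makes retinoids. Dose, duration, age and sex are not given in the labels used here, and nothing says whether the libraries of a group were made from separate animals. The p-values below therefore take each library as a unit and cannot be read as inference over separate animals. Libraries are named by treatment and by the number in their title, for example HFD 23.

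A lymph node is a packed organ of B cells and T cells held in place by stromal cells. Its reticular and lymphatic cells make the chemokines CCL19 and CCL21, which attract cells that carry the receptor CCR7, and its follicles make CXCL13, which attracts cells that carry CXCR5. Blood lymphocytes enter through high endothelial venules, whose sugar-coated mucins slow them on the vessel wall. The inguinal fat pad of the mouse, a subcutaneous depot, has a lymph node embedded in it. In bulk tissue, fewer cells of a type and less RNA per cell cannot be told apart.

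The labelled depot was checked against its markers. Tbx15, Shox2 and Hoxc10, developmental regulators typical of inguinal fat, were present in all 20 libraries labelled visceral: Hoxc10 ranged from 17.6 to 48.3 TPM and Shox2 from 5.35 to 23.4 TPM. Genes of visceral fat and its mesothelial covering were near 0 in the same libraries, with Wt1 at most 0.06 TPM, Upk3b at most 0.65 TPM and Msln at most 0.75 TPM. These markers run against the depot label, so the libraries are called labelled visceral and labelled subcutaneous throughout. Glycam1 is also a milk protein gene in the mammary gland, which lies beside inguinal fat. Csn2 (beta-casein) was low but followed the classes, from 0 through a median of 0.11 to 0.38 TPM in rich libraries. It was 0 in all 10 poor libraries and in all 20 labelled subcutaneous. Wap reached at most 0.10 TPM in the 20 libraries labelled visceral, and Csn3 reached 7.84 TPM in the rich library normal with drug 9. The skin keratin Krt14 reached 76.5 TPM in the poor library HFD with drug 62. The part of mammary or skin tissue in the Glycam1 level was not tested.

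Glycam1 ranged from 41.4 TPM in HFD 23 to 247 TPM in normal 99 among the rich libraries. Just below the threshold stood HFD with drug 62 at 14.0 TPM, and the next poor library was at 0.648 TPM. The highest of the 20 libraries labelled subcutaneous was at 0.193 TPM. Approximate counted reads ran from 4.84 to 7.66 M (M, 1000000 reads) in rich and from 5.15 to 8.05 M in poor libraries. Mitochondrial transcripts took 20.3 to 30.5% of a rich library and 22.2 to 43.5% of a poor one, with the highest share in HFD with drug 62.

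Of 7759 genes tested, that is with at least 10 TPM in at least 5 of the 20 libraries, 33.7% were higher and 12.1% lower in rich libraries at an adjusted p under 0.05 (limma, with treatment as a block, Benjamini-Hochberg adjustment). The 2 classes of library did not overlap for 8.71% of tested genes with rich above poor, and for 0.0902% with rich below poor. Against this background, 18 lists of lymphoid and lymph node genes held 216 genes, of which 128 passed the filter on low values. Of the 128, 112 were higher and 1 was lower. Because a gene can pass the filter through the rich libraries alone, the count over all 216 is also given: 164 had every rich library above every poor library and 0 had the opposite. The 8.71% covers tested genes only, and no such share over unfiltered genes is given. Counts without overlap over whole lists, here and below, therefore have no like background. The median difference over the 128 tested lymphoid genes was 2.73 on the log2(TPM + 1) scale, beside 0.10 over all genes tested. Quantile normalization moved the whole comparison, with 1492 genes higher and 3082 lower in place of 2615 and 935, and a median over all genes of -0.15. The lists and Glycam1 come from the same contrast, so these counts describe the groups and support nothing further.

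**Figure D1:**
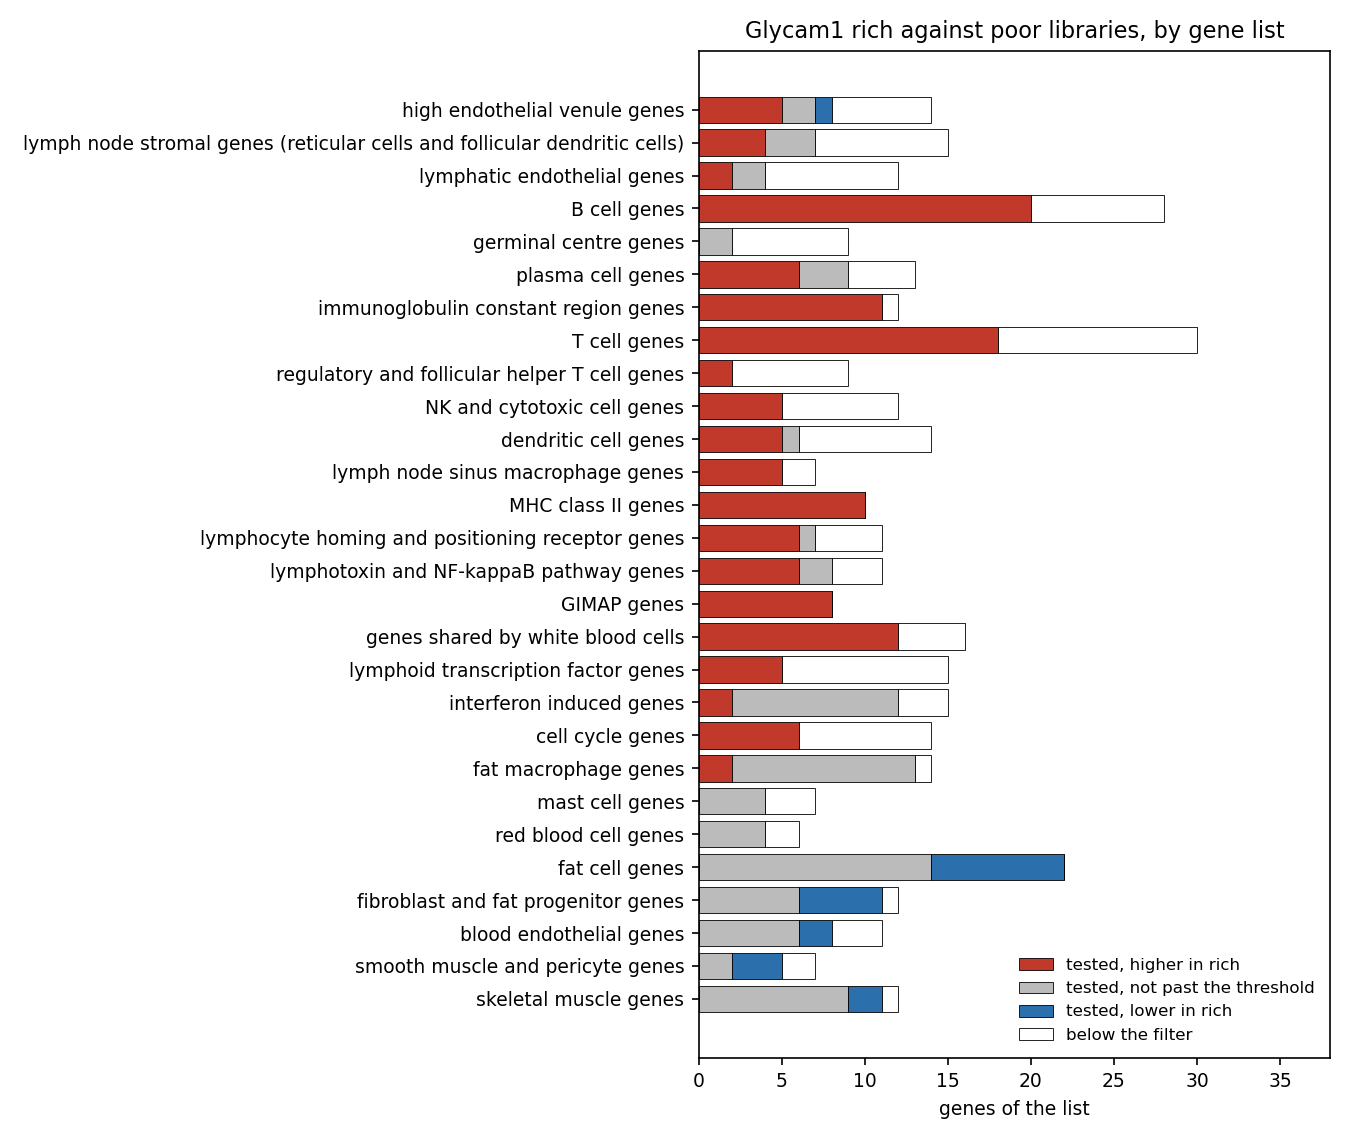
Number of genes of each list on the x axis, divided into genes tested and higher in the 10 rich libraries (red), tested and not past the threshold (grey), tested and lower (blue) and below the filter (white). All 20 tested B cell genes and all 18 tested T cell genes are red, and the fat cell list has 8 blue and 0 red genes.

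The chemokines of the T cell zone separated the classes widely. Ccl21a ran from 817 through a median of 1842 to 3843 TPM in rich libraries and from 0 through 36.1 to 327 TPM in poor ones, a log2 difference of 5.53 (SE 0.72, n = 10 and 10). HFD 22 was the poor library at 0 and HFD with drug 62 the one at 327 TPM. Ccl21a has near-identical copies in the mouse genome, so its level may hold or lack reads of its copies. Ccl19 ran from 47.9 through 69.3 to 169 TPM against 0.41, 1.504 and 13.1 TPM, a log2 difference of 4.83 (SE 0.39). Both chemokines left a gap between the lowest rich and the highest poor library. Libraries labelled subcutaneous had Ccl21a as well, with a median of 396 TPM and a highest value of 957 TPM, while their Glycam1 was at most 0.193 TPM.

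High endothelial venule genes were present at low levels. Chst4, a sulfotransferase that acts on venule mucins, ran from 0.72 through 1.59 to 3.31 TPM in rich libraries and was 0 in most poor ones, with a highest poor value of 0.10 TPM. Fut7, which adds fucose to the same mucins, ran from 2.92 through 7.02 to 12.4 TPM against 0.32, 0.88 and 2.01 TPM. Madcam1, the mucosal addressin of venules and of follicular stroma, overlapped: 1.81, 3.95 and 7.13 TPM against 0.27, 0.94 and 2.67 TPM. None of these 3 genes reached the filter of 10 TPM in 5 libraries. In libraries labelled subcutaneous, which lacked Glycam1, Chst4 had a median of 2.63 TPM and a highest value of 7.73 TPM. Of the 14 genes on the list, 8 were tested, 5 were higher, 1 was lower (Cd34, with a log2 difference of -0.80, SE 0.25) and 4 of 14 did not overlap. Vcam1, an adhesion molecule of activated endothelium and of reticular stroma, was the clearest of those tested, at 44.1, 60.8 and 125 TPM against 12.4, 19.3 and 26.6 TPM. General endothelial genes overlapped: Pecam1 had medians of 37.7 TPM in rich and 40.3 TPM in poor libraries, and Ackr1, which venules also express, had medians of 33.6 and 44.7 TPM.

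Follicular stroma gave a mixed picture. Cr2, the complement receptor of follicular dendritic cells and B cells, ran from 7.33 through 13.9 to 26.1 TPM in rich libraries and from 0.05 through 0.10 to 0.79 TPM in poor ones. Clusterin (Clu), which follicular dendritic cells and other cells make, ran from 132 through 218 to 379 TPM against 23.9, 51.6 and 74.3 TPM. Neither gene overlapped. Cxcl13 did overlap: it ran from 138 through 212 to 391 TPM in rich libraries and from 15.6 through 103 to 282 TPM in poor ones. The poor libraries normal with drug 2 and normal with drug 5 held 282 and 259 TPM of Cxcl13. Their Cd79a, a B cell gene, was at 2.29 and 3.12 TPM, so a high Cxcl13 level occurred with little Cd79a RNA. Their summed B cell lists were 341 and 1505 TPM, the latter the highest of the poor libraries, with Igkc at 224 and 998 TPM. Grem1, an antagonist of bone morphogenetic proteins made by reticular cells, and Tnfsf11, the gene for RANKL, did not overlap but stayed under the filter, with medians of 5.56 and 1.02 TPM in rich libraries against 0.01 and 0.03 TPM. Of 15 stromal genes, 7 were tested, 4 were higher, 0 were lower and 10 of 15 did not overlap.

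**Figure D2:**
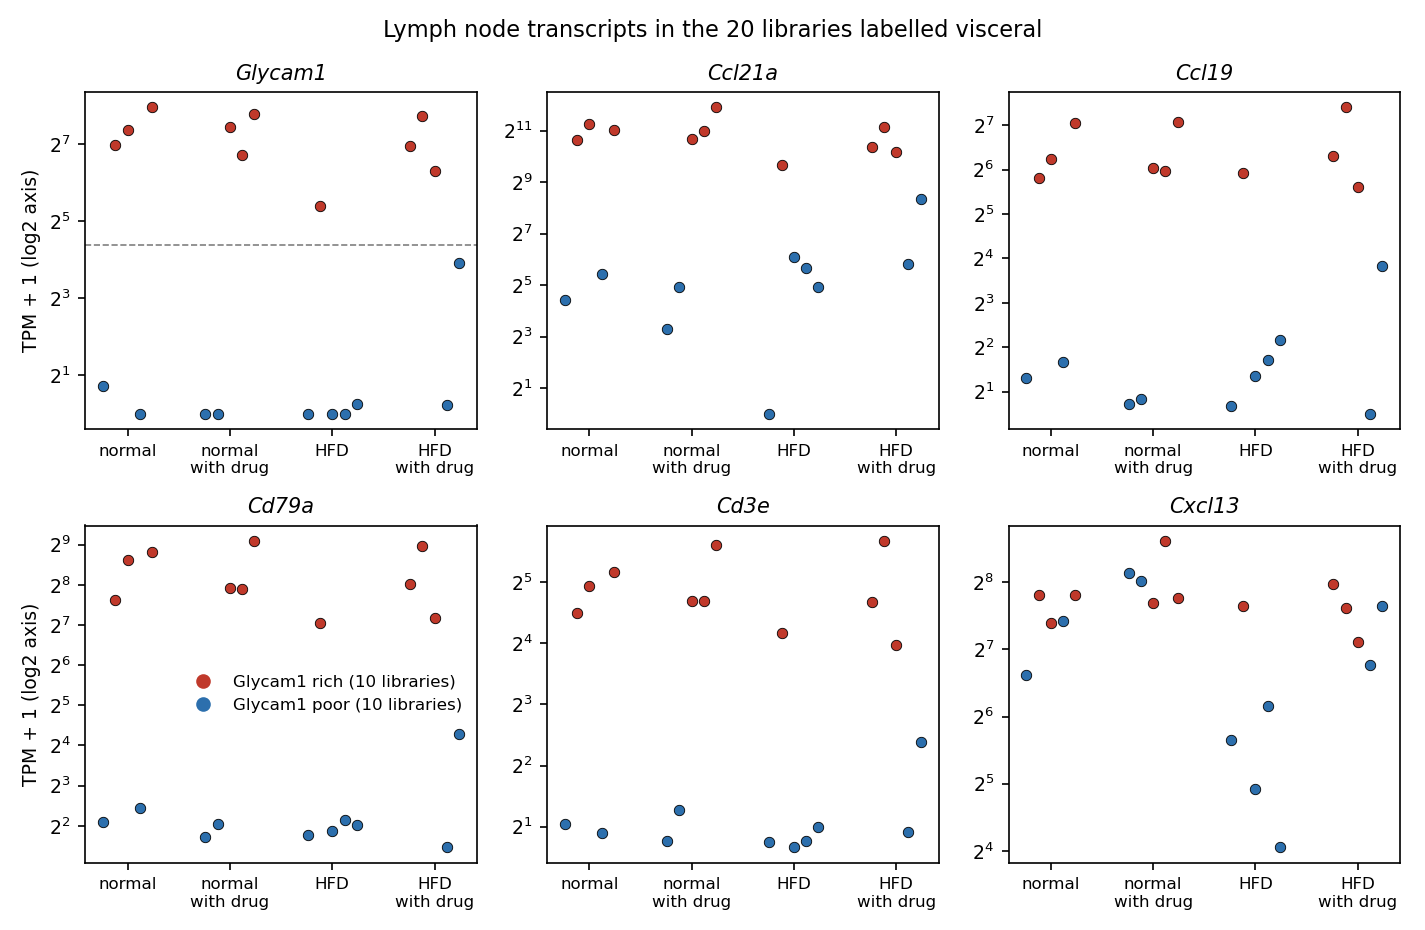
TPM + 1 on a log2 axis of Glycam1, Ccl21a, Ccl19, Cd79a, Cd3e and Cxcl13 in each of the 20 libraries labelled visceral, by treatment, with rich and poor libraries in different colours and the Glycam1 threshold as a dashed line. Rich and poor points are apart for Ccl21a, Ccl19, Cd79a and Cd3e, and intermix for Cxcl13.

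Lymphatic and sinus genes followed. Lyve1, a hyaluronan receptor of lymphatic endothelium and of tissue macrophages, overlapped, at 34.7, 61.1 and 115 TPM in rich against 16.7, 36.4 and 145 TPM in poor libraries. Prox1, the lymphatic master regulator, Stab2 and Mmrn1 did not overlap and stayed under the filter, with rich medians of 2.09, 2.03 and 3.18 TPM against 0.30, 0.25 and 0.77 TPM. Of 12 lymphatic endothelial genes on the list, 4 were tested, 2 were higher, 0 were lower, and 6 of 12 did not overlap. Macrophages that line lymph node sinuses were represented by Marco, a scavenger receptor, at 11.7, 32.5 and 58.1 TPM against 0.03, 0.17 and 4.22 TPM. Cd209b (SIGN-R1), a lectin of medullary and marginal macrophages, was at 129, 209 and 302 TPM against 15.7, 26.7 and 86.5 TPM. Timd4 and Cd5l, further genes of resident macrophages, also did not overlap, while Siglec1 did. All 5 tested sinus macrophage genes of 7 on the list were higher. Genes of macrophages in fat did not share this: of 13 tested, 2 were higher, 0 were lower, and all 14 on the list overlapped.

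B cell genes had the largest differences. Cd79a, a signalling chain of the B cell receptor, ran from 132 through 249 to 546 TPM in rich libraries and from 1.75 through 3.08 to 18.5 TPM in poor ones, a log2 difference of 5.75 (SE 0.35). Ms4a1 (CD20) ran from 32.0 through 63.1 to 132 TPM against 0.14, 0.56 and 4.12 TPM. For both genes HFD with drug 62 was the highest poor library and HFD 23 the lowest rich one. Spib, a transcription factor of B cells and plasmacytoid dendritic cells, Ly6d, Cd79b and Tnfrsf13c (the BAFF receptor) were also among the 12 largest increases, with log2 differences of 5.66, 5.70, 5.44 and 5.46. All 20 tested B cell genes were higher, and 26 of 28 on the list did not overlap. The exceptions were Ebf1, which fat progenitors express too, with medians of 3.296 and 4.01 TPM, and Ighm. The summed TPM of the B cell list was 4729 to 21491 in rich and 162 to 1505 in poor libraries.

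Immunoglobulin genes separated by class of heavy chain. Ighd, the chain of naive B cells, ran from 93.6 through 206 to 433 TPM in rich libraries and from 1.10 through 2.93 to 14.6 TPM in poor ones. Ighm, the IgM chain, overlapped: 811, 1789 and 2512 TPM against 79.3, 222 and 841 TPM. The poor libraries HFD 22 and HFD 50 held 841 and 559 TPM of Ighm, with Cd79a at 2.39 and 2.63 TPM and Igkc at 118 and 121 TPM. Switched chains had the largest differences of all named genes: Ighg2c ran from 48.2 through 397 to 1324 TPM against 0.11, 1.81 and 33.3 TPM, a log2 difference of 6.52 (SE 0.60), and Ighg2b and Ighg1 followed at 6.06 (SE 0.48) and 5.99 (SE 0.47). Igkc, the kappa light chain, ran from 3016 through 8465 to 17127 TPM against 63.6, 173 and 998 TPM.

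The make-up of the heavy chains also differed between the classes. Ighm was 33.9 to 72.8% of all heavy chain constant TPM in rich libraries and 77.7 to 98.6% in poor ones. Switched chains took 17.7 to 60.7% in rich and 0.98 to 17.8% in poor libraries. These ranges overlapped narrowly, with the poor library HFD with drug 62 at 17.8% above the rich library normal 99 at 17.7%. Among rich libraries the switched mix was uneven. Igha took 0.656 to 18.2%, with 1004 TPM in normal 96, and Ighg2c took 1.40 to 27.3%. Kappa made up 92.9 to 96% of light chain TPM in rich libraries, a narrow range.

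Variable segments showed a broad repertoire. Of 183 heavy chain variable segments in the table, 92 to 118 were above 0 in a rich library and 19 to 76 in a poor one. Of 160 kappa variable segments, the ranges were 91 to 118 and 22 to 73. The most abundant heavy segment of a rich library took 5.34 to 13.0% of the heavy segment TPM and the most abundant kappa segment 5.79 to 17.6%. Over rich libraries Ighv1-26 had the highest median share at 5.81%, and Igkv10-96 the highest among kappa segments at 4.03%, with a range from 2.24 to 17.6%. More RNA of a gene family makes more of its members detectable, so the number of segments above 0 is not a measure of diversity. Segments are short, their TPM is imprecise, and reads of similar segments can be assigned to one another.

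Plasma cell genes were less uniform than B cell genes. Jchain, which links IgA and IgM chains, ran from 71.8 through 170 to 463 TPM against 0.99, 5.70 and 33.7 TPM. Of 13 genes on the list, 9 were tested, 6 were higher, and 5 of those 6 were heavy chain constant genes. Xbp1, Irf4 and Sdc1, which fat cells or other cells of fat also express, overlapped. Of the germinal centre genes, Bcl6, a transcription factor of germinal centre B cells and follicular helper T cells, overlapped with medians of 24.6 TPM in rich and 17.5 TPM in poor libraries. On the whole list of 9, 3 did not overlap. Cell cycle genes were higher in 6 of 6 tested, but only 2 of 14 on the list did not overlap. Mki67 had medians of 9.98 and 2.11 TPM.

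T cell genes did not overlap in 30 of 30 on the list, and all 18 that were tested were higher. Cd3e, a chain of the T cell receptor complex, ran from 14.7 through 24.8 to 50.01 TPM in rich libraries and from 0.58 through 0.87 to 4.20 TPM in poor ones, a log2 difference of 3.61. Cd8a, the coreceptor of cytotoxic T cells, ran from 51.4 through 90.3 to 186 TPM, with a highest poor value of 10.01 TPM. Cd4 ran from 18.3 through 29.3 to 49.3 TPM, with a highest poor value of 5.14 TPM. Tcf7, a transcription factor of naive and memory T cells, had a log2 difference of 4.00. Foxp3, the regulator of regulatory T cells, stayed under the filter at 1.86, 2.90 and 5.65 TPM against 0.02, 0.07 and 0.61 TPM. Ccl5 and Nkg7, genes of cytotoxic T cells and natural killer cells, were at 113 and 108 TPM in the median rich library against 9.90 and 16.7 TPM. Ncr1, a receptor of natural killer cells, overlapped at medians of 4.86 and 2.31 TPM.

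Receptors for entry and positioning moved with the lymphocytes. Ccr7 ran from 27.2 through 44.9 to 95.2 TPM in rich libraries and from 0.68 through 0.90 to 6.61 TPM in poor ones. Cxcr5, the receptor for CXCL13, did not overlap but was low, with medians of 5.41 and 0.09 TPM. S1pr1, the receptor for lymphocyte exit that blood endothelium expresses strongly too, was the exception among 11 homing genes and overlapped, with medians of 421 and 389 TPM. Lymphotoxin beta (Ltb), by which lymphocytes instruct stromal cells, ran from 175 through 310 to 611 TPM against 4.44, 7.10 and 36.3 TPM, while its receptor gene Ltbr overlapped at medians of 45.9 and 57.7 TPM. Its partner Lta had medians of 22.03 and 0.32 TPM. All 8 GIMAP genes, which code for GTPases of lymphocytes, were tested and higher, and none overlapped. Of 16 genes shared by white blood cells, 15 did not overlap and 1, Ptprcap, was at 0 in all libraries. Interferon-induced genes overlapped in 14 of 15, and 2 of 12 tested were higher.

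Dendritic cell genes did not overlap in 11 of 14. Ccl22, a chemokine of mature dendritic cells, had medians of 58.3 and 1.79 TPM, and Siglech, a gene of plasmacytoid dendritic cells, 19.8 and 2.47 TPM. Cd209a overlapped, at medians of 22.2 and 28.6 TPM. The 10 genes of antigen presentation by MHC class II were all tested and all higher. Most fell in 2 tiers, with Ciita between them at a log2 difference of 2.11. H2-Ob ran from 27.1 through 64.6 to 142 TPM in rich libraries and from 0.73 through 1.51 to 4.83 TPM in poor ones, a log2 difference of 4.60. With H2-Oa, which differed by 3.90, it forms H2-O, an inhibitor of peptide loading found mainly in B cells. H2-DMb2 had the largest difference of the 10, at 4.63. The classical chains and their chaperone, which macrophages of fat make too, had smaller differences: H2-Aa 1.14, H2-Ab1 1.09, H2-Eb1 1.11 and Cd74 1.26. Cd74 ran from 832 through 1003 to 1385 TPM against 182, 485 and 640 TPM. H2-DMb1, beside its near copy H2-DMb2, differed by 1.19 and was the single member that overlapped. Reads of these similar genes may be shared, so the split between H2-DMb1 and H2-DMb2 is uncertain.

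MHC class II promoters are the textbook case of a shared module of short motifs, ending in a Y box that the factor NF-Y binds. The Y box was searched as TGATTGG on both strands in the 250 bases before each start site (RefSeq, build GRCm38.p6). Of the 10 genes, 7 were matched to a promoter, and 6 of these 7 held the motif, all on the gene's own strand. Over 27025 genes with a RefSeq promoter, 8.38% held it on either strand and 4.24% on the gene's own strand. Counted over the 32851 promoters, 7.23% held it on either strand. The 6 windows are printed below because they come from both tiers. Each is 67 bases on chromosome 17, 5′ to 3′ on the gene's strand, with the Y box in capitals.
H2-Ob: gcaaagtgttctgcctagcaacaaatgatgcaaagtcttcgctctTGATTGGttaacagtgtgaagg
H2-Oa: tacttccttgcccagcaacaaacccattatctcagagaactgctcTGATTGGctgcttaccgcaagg
H2-DMb2: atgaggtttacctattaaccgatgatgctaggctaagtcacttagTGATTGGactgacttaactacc
H2-DMb1: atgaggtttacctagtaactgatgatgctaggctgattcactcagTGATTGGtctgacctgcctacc
H2-Aa: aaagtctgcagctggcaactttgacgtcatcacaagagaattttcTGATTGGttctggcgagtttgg
H2-Eb1: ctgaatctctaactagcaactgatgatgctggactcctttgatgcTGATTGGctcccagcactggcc

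In build GRCm38.p6 these windows lie at chr17:34238801-34238867 (plus strand) for H2-Ob, chr17:34092289-34092355 (plus) for H2-Oa, chr17:34145112-34145178 (plus) for H2-DMb2, chr17:34153083-34153149 (plus) for H2-DMb1, chr17:34287852-34287918 (minus) for H2-Aa and chr17:34305761-34305827 (plus) for H2-Eb1. Each lies just upstream of its gene, and its Y box starts 45 bases (H2-Oa) to 92 bases (H2-DMb2) before the start site. H2-Ob, H2-Oa and H2-DMb2, with the largest differences between rich and poor libraries, and H2-Aa, H2-Eb1 and H2-DMb1, with the smaller ones, all held the motif. H2-DMa, with a log2 difference of 1.46, had no match in its window. A match is a description of letters and not a bound site.

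**Figure D3:**
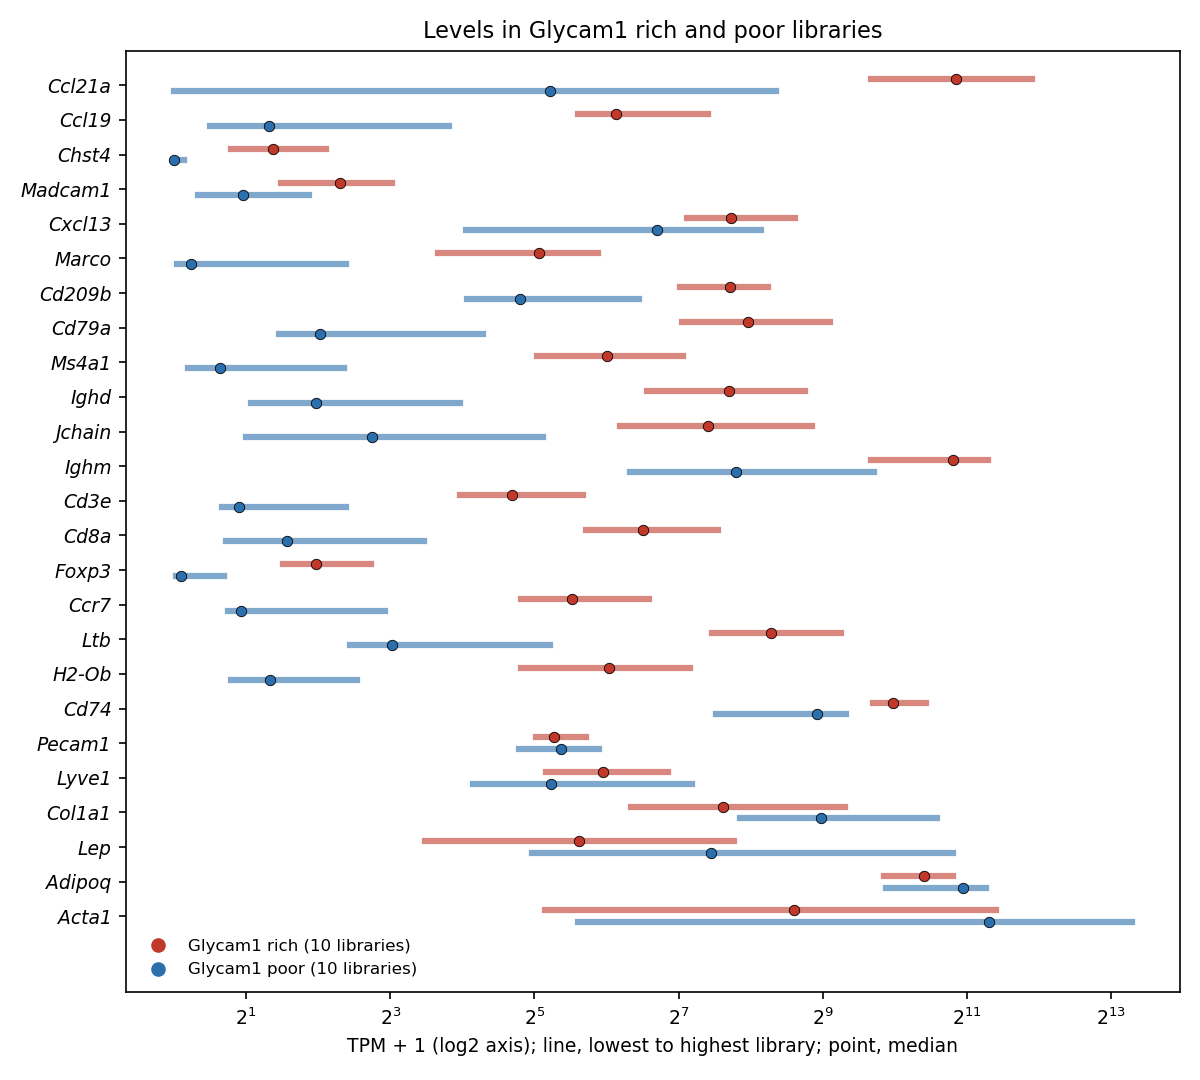
Lowest, median and highest TPM + 1 on a log2 axis for selected genes in 10 rich and 10 poor libraries. The ranges are apart for Cd79a, Cd3e, Ccr7, Ltb and H2-Ob, and overlap for Cxcl13, Ighm, Adipoq and Acta1.

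Genes of other lymphoid organs were mixed. Ptcra, Foxn1 and Psmb11 of the thymus were at most 0.11, 0.01 and 0.05 TPM in the 20 libraries, and Tlx1, a regulator of spleen stroma, was at most 0.11 TPM. Of the 3 spleen genes tested, 2 were higher: Vcam1, described above, and Spic, a transcription factor of red pulp macrophages that B cells express too. Spic ran from 7.47 through 11.8 to 21.99 TPM in rich libraries and from 0.75 through 1.70 to 2.95 TPM in poor ones, without overlap. Rag1, an enzyme of receptor rearrangement, was at 0.18, 2.97 and 12.9 TPM in rich libraries against at most 0.03 TPM in poor ones, with Rag2 at most 0.93 TPM.

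Some fat and stromal genes of the pad were lower in rich libraries. Adipoq, the gene for adiponectin, ran from 919 through 1357 to 1786 TPM in rich libraries and from 937 through 1967 to 2460 TPM in poor ones, a log2 difference of -0.46 (SE 0.16). Plin1, which coats fat droplets, had medians of 605 and 803 TPM. Of 22 fat cell genes, all of them tested, 8 were lower, 0 higher and 14 did not pass, and all 22 overlapped. Over all tested genes 12.1% were lower. The 8 became 14 without HFD with drug 62 and 5 without normal with drug 5 or normal 98. Lep, the gene for leptin, had the largest difference of these, at 10.2, 48.1 and 218 TPM against 30.3, 174 and 1792 TPM. With treatment as a block it differed by -1.31 (SE 0.50), and it passed no longer in 20 of 34 alternatives, with adjusted p up to 0.2745 (limma). Lep also moved with diet: its medians were 820 TPM in HFD, where 4 of 5 libraries were poor, and 49.9 TPM in normal.

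Among fibroblast and progenitor genes, Col1a1 had medians of 195 TPM in rich and 505 TPM in poor libraries. Of 11 tested, 5 were lower, beside 12.1% of all tested genes, and 6 did not pass. Single libraries moved this count from 0 to 8. It was 0 without normal with drug 5 and 1 without normal 98. It was 2 without HFD with drug 26, normal 96, normal with drug 2 or normal with drug 9, and 3 without HFD 50, HFD with drug 54 or normal with drug 8. It was 8 without HFD with drug 25 or 27. Lymphoid genes and immunoglobulin and T cell receptor segments together took 2.44 to 8.81% of TPM in rich libraries and 0.407 to 0.959% in poor ones.

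Skeletal muscle transcripts varied widely within both classes. Of 11 tested muscle genes 2, Acta1 and Myl1, were lower in rich libraries and 9 did not pass, and all 12 on the list overlapped. Over all tested genes 12.1% were lower, so 2 of 11 is near that share and is no result about the list. The 2 became 9 without HFD with drug 54, 4 without HFD 23 or HFD with drug 27, and 1 without HFD with drug 26, HFD with drug 62, normal with drug 5, normal 92 or normal 98. Acta1, skeletal muscle actin, ran from 34.5 through 387 to 2703 TPM in rich libraries and from 47.7 through 2526 to 10006 TPM in poor ones. Of the 12 largest decreases among genes that passed, most are genes expressed in skeletal muscle, among them Lrrc30, Trim63, Pygm, Myl1 and Casq1, and each overlapped. Trim63 passed no longer in 23 of 34 alternatives, Pygm in 21 of 34, Casq1 in 19 of 33, Lrrc30 in 7 of 33 and Myl1 in 2 of 34. The summed muscle list was 68.5 to 5488 TPM in rich and 75.5 to 21756 TPM in poor libraries. With the muscle sum as a covariate, the number of fat cell genes lower in rich libraries went from 8 to 2, that of progenitor genes from 5 to 0, and the lower genes overall from 935 to 390. All 20 tested B cell genes and all 18 tested T cell genes remained higher. The part of muscle in the lower fat genes was not tested beyond this.

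HFD with drug 62 stood between the classes. Its Glycam1 was 14.0 TPM, and it was the highest poor library for 90 of the 164 lymphoid genes that did not overlap. It also held the most muscle RNA, 21756 TPM over the muscle list, and 192 TPM of Ucp1, a gene of heat-producing fat that was at most 4.84 TPM in rich libraries. At the other side, HFD 23 was the lowest rich library for 81 of the 164. Without these 2 libraries, the B cell and T cell counts of 20 and 18 did not change.

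Among the 10 rich libraries, the gene ratios given here varied less than the levels of their genes. Other proportions were wider: the Igha share of heavy chain TPM spanned a 27.7-fold range and the Ighg2c share a 19.5-fold range. Cd4 to Cd8a ran from 0.266 to 0.381, a 1.43-fold range, and Ighd to Cd79a from 0.711 to 0.889. Cd79a to Cd3e, a B cell gene against a T cell gene, ran from 7.81 to 13.3, and Ccl21a to Cd79a, stroma against B cells, from 4.60 to 8.67. The widest of the ratios given here was Jchain to Cd79a, from 0.321 to 1.17. In poor libraries the same ratios were wider, with Cd4 to Cd8a from 0.155 to 0.845, on levels near 1 TPM.

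Relations across the 10 rich libraries were computed between Ccl21a and 7 genes on log2(TPM + 1), with two-sided permutation tests (100000 resamples) adjusted over the 7, and 6 are given. All values are shares of the same library, so a larger share of node RNA raises its genes and lowers the others. Cd3e followed Ccl21a, with Pearson r = 0.85 and Spearman rho = 0.92 (adjusted permutation p = 0.00345 and 0.00145). Without HFD 23 and normal with drug 9, the farthest from the median of Ccl21a, r was 0.79. Adipoq ran the other way, with r = -0.86 and rho = -0.92 (adjusted permutation p = 0.00345 and 0.00145), and r = -0.85 without them. Jchain and Madcam1 were looser, at r = 0.73 and 0.72 and rho = 0.78 and 0.73 (adjusted permutation p = 0.0262 for each r, 0.0182 and 0.0242 for rho), and r = 0.70 and 0.62 without them. Ccl19 gave r = 0.65 and rho = 0.73 (adjusted permutation p = 0.0465 and 0.0242), and r = 0.59 without them. Cxcl13 showed no relation past the threshold, with r = 0.19 and rho = -0.02 (adjusted permutation p = 0.615 and 0.972), and r = 0.22 without them. With 1 to 3 libraries of each treatment, the relations could not be computed within a treatment.

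**Figure D4:**
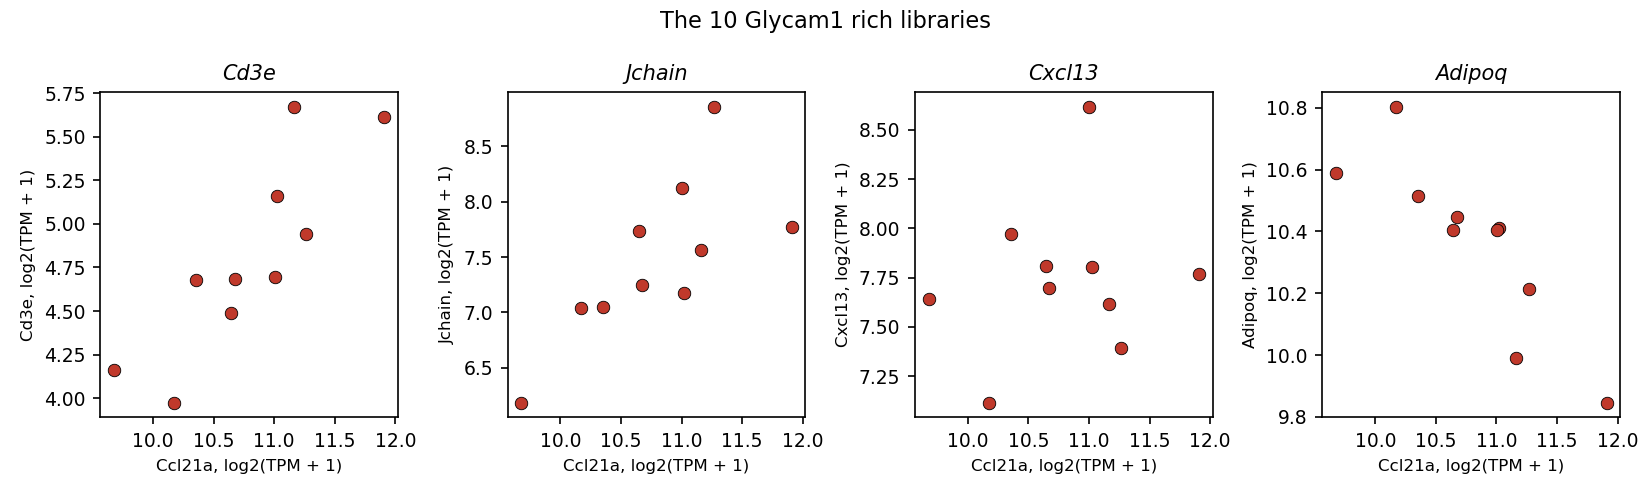
Log2(TPM + 1) of Cd3e, Jchain, Cxcl13 and Adipoq against that of Ccl21a in the 10 Glycam1 rich libraries, with 1 point for each library. Cd3e and Jchain rise with Ccl21a, Adipoq falls, and Cxcl13 shows no trend.

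The study compared diets and drug, so the split of rich libraries over treatments was examined. Rich libraries were 3 of 5 in normal, 3 of 5 in normal with drug, 1 of 5 in HFD and 3 of 5 in HFD with drug. An exact test over 184756 arrangements gave a two-sided p of 0.675. Fisher's exact tests, two-sided, gave p = 0.524 (adjusted over 3 tests 0.786) for HFD against normal and for HFD with drug against HFD, and p = 1 for normal with drug against normal. With 5 libraries against 5, Fisher's exact test can go no lower than 0.00794. No difference in the frequency of rich libraries was detectable with these numbers.

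HFD against normal called 8.93% of 7759 genes at an adjusted p under 0.05 (limma), 489 higher and 204 lower. The median difference of the 128 tested lymphoid genes was -1.30, beside -0.05 over all genes, yet 2 lymphoid genes passed as higher and 1 as lower. With the Glycam1 class as a term in the same fit, the lymphoid median was -0.14 and 8.15% of genes were called. HFD with drug against HFD, which shares the HFD libraries with the first comparison, gave a lymphoid median of 1.29 and 5.18% of genes called without the class, and 0.22 and 2.55% with it. Normal with drug against normal called 0% with and without the class (284 and 447 genes at an unadjusted p under 0.05 in limma), with a lymphoid median of -0.06. That median ran from -0.50 to 0.53 when 1 library was left out, and was above 0 without normal 94, normal 96, normal 99, normal with drug 2 or normal with drug 5. For a single gene, Cd79a differed by -2.95 (SE 1.89) between HFD and normal without the class and by -0.65 (SE 0.48) with it. The lymphoid medians of both HFD comparisons were nearer 0 with the class in the fit. The class was set on a lymph node transcript and fewer HFD libraries were rich, so this shift was built in. It describes the fit and supports nothing further. Single libraries moved the counts of called genes. The 693 of HFD against normal became 269 without HFD 22, 245 without HFD 50, 326 without normal 94, 360 without normal 96 and 359 without normal 99. The 402 of HFD with drug against HFD became 0 without HFD 22, 4 without HFD 50, 75 without HFD 83, 853 without HFD 23, 245 without HFD with drug 25, 64 without 26, 156 without 27 and 25 without 62.

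Once the class was a term, 2 of the 128 tested lymphoid genes passed as higher in HFD and 4 as lower. Over all 7759 genes, 413 were higher and 219 lower in that fit, together 8.15%. The 4 lower of 128 are near the share of all genes, so the count is no result about lymphoid genes as a set. The 4 lower genes were Jchain and 3 of the 4 listed light chain constant genes. In HFD against normal with the class, Iglc1 (a lambda chain) fell by 2.90 (SE 0.62, adjusted p = 0.0105, limma), Jchain fell by 2.08 (SE 0.45, adjusted p = 0.0105) and Igkc fell by 2.17 (SE 0.52, adjusted p = 0.019), all on the log2(TPM + 1) scale. Iglc3 did not pass, at -1.26 (SE 0.62, adjusted p = 0.223, limma). Without the class none of the 3 passed, with adjusted p of 0.0737, 0.0963 and 0.114. In the poor libraries, Igkc was 71.3 to 122 TPM in the 4 HFD libraries, 414 and 876 TPM in normal, 224 and 998 TPM in normal with drug and 63.6 and 519 TPM in HFD with drug. Every poor HFD library was thus below both poor normal libraries. The 1 rich HFD library, HFD 23, had 3016 TPM of Igkc, beside 6978 to 17127 TPM in the 3 rich normal ones. Jchain gave the same order: 0.99 to 4.96 TPM in poor HFD libraries, 9.96 and 24.1 TPM in poor normal ones, and 71.8 TPM in HFD 23 beside 144 to 463 TPM. For Cd79a they overlapped, with poor HFD libraries from 2.39 to 3.45 TPM and poor normal ones at 3.28 and 4.48 TPM. HFD 23 held the least Glycam1 of the rich class. Its Cd79a was 132 TPM, beside 194 to 448 TPM in the 3 rich normal libraries. Its Jchain to Cd79a ratio of 0.545 lay within their range of 0.321 to 1.17. The class has 2 levels, so the fit does not hold the amount of node RNA within a class.

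The limits of this difference were measured. In the fit of poor libraries alone, with 4 HFD and 2 normal, Igkc, Iglc1 and Jchain did not pass (adjusted p 0.246, 0.224 and 0.224, limma), though the log2 differences were -2.50, -3.07 and -2.25. Igkc passed without each library in turn except normal 98 (adjusted p 0.0523), and Iglc1 and Jchain passed in 10 of 10. Iglc2 passed with all libraries (adjusted p = 0.0321, limma) but in 2 of 10 with 1 left out. Ighm did not move with them, at 0.14 (adjusted p = 0.91, limma), and its poor HFD libraries ranged from 179 to 841 TPM.

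A further 3 genes of the lymph node lists passed in the diet comparison. Cxcl13 fell by 1.72 (SE 0.47, adjusted p = 0.0289, limma) without the class. It missed the threshold with it, at -1.44 (adjusted p = 0.0522, limma), and passed with it in 2 of 10 when 1 library was left out. In the poor libraries it was 15.6 to 70.6 TPM in HFD, 97.6 and 170 TPM in normal, 259 and 282 TPM in normal with drug, and 108 and 199 TPM in HFD with drug. In HFD with drug against HFD, Cxcl13 rose by 1.74 (adjusted p = 0.0427, limma) without the class and differed by 1.46 (adjusted p = 0.0729) with it. Mfge8, a phagocytosis bridge made by follicular dendritic cells and by many other cells, rose by 0.83 (adjusted p = 0.0223, limma) with the class in HFD against normal. In HFD with drug against HFD it fell by 0.78 (adjusted p = 0.0367, limma) without the class and by 0.81 (adjusted p = 0.046) with it. B3gnt3, a glycosyltransferase of venules and of epithelium, rose by 0.76 (adjusted p = 0.0104, limma). Both rose in a comparison in which fewer HFD than normal libraries were rich: Mfge8 was 280 to 494 TPM in the poor HFD libraries and 203 TPM in HFD 23. Mfge8 missed the threshold when HFD 22, HFD 50 or normal 92 was left out.

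**Figure D5:**
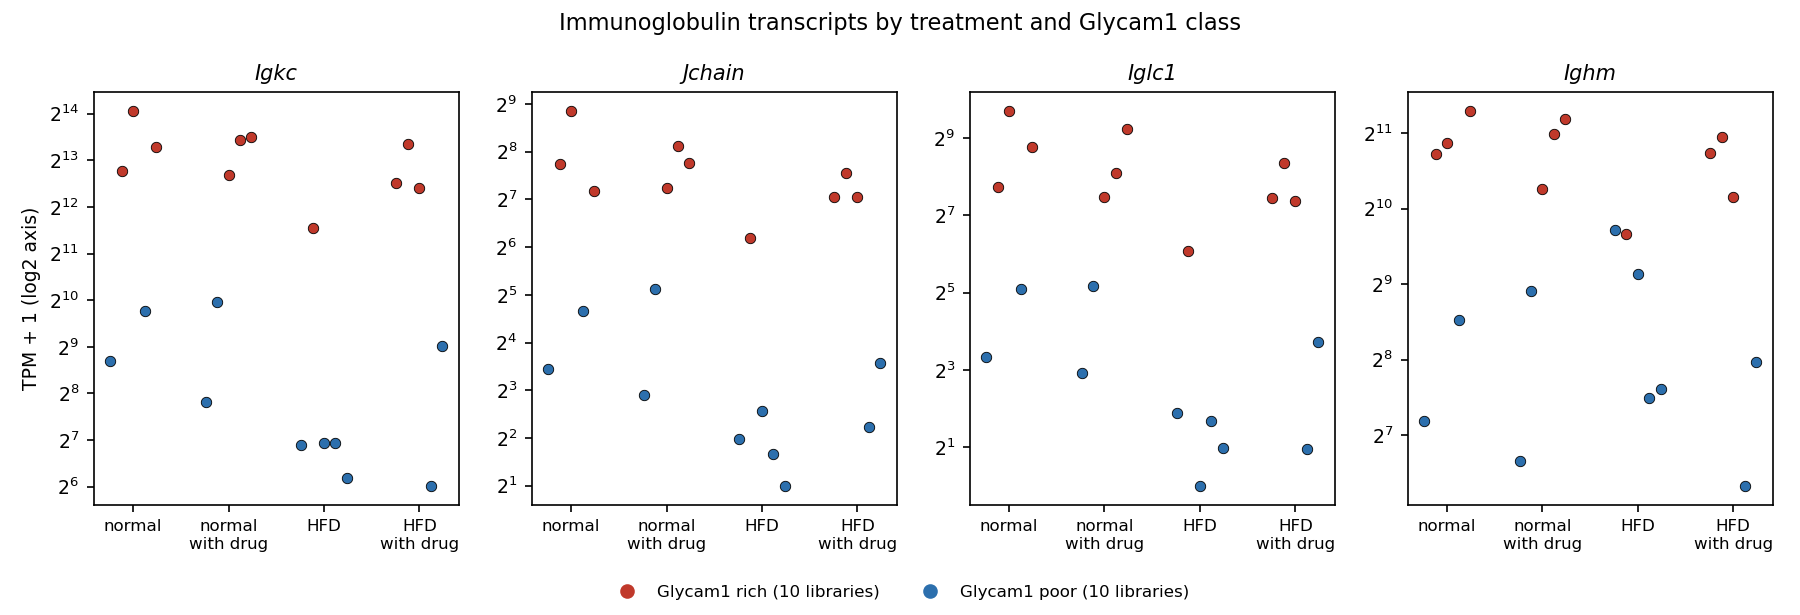
TPM + 1 on a log2 axis of 4 genes in each library labelled visceral, by treatment, with rich and poor libraries in different colours. Poor HFD libraries lie below poor normal libraries for Igkc, Iglc1 and Jchain, and not for Ighm.

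The interaction of class with treatment was tested for all genes by an F test in limma. It called 0 genes, with 467 at an unadjusted p under 0.05 and a smallest adjusted p of 0.141, so differences between rich and poor libraries were not shown to depend on treatment.

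A last comparison used libraries that the rule did not touch. Of the 20 libraries labelled subcutaneous, 16 shared treatment and title number with a library labelled visceral, 8 with a rich and 8 with a poor one. The labels do not say that a shared number means a shared animal. None of 7357 genes passed at an adjusted p under 0.05 in limma (0%, 673 at an unadjusted p under 0.05, smallest adjusted p 0.513). Over the 62 lymphoid genes tested the median difference was -0.43, beside -0.08 over all genes, and 21 of the 62 had an unadjusted p under 0.05. Igkc differed by -1.18 (SE 0.44), Ighm by -0.94 (SE 0.29), Jchain by -1.07 (SE 0.39) and Cd74 by -0.59 (SE 0.19), each with an adjusted p of 0.513 (limma). All 4 had lower means in the partners of rich libraries, and none passed. Epididymis transcripts moved with these groups: the summed list was 24.3 to 30294 TPM in partners of rich libraries and 1.31 to 840 TPM in partners of poor ones, and the 3 libraries above 5000 TPM (normal with drug 9, HFD with drug 27 and HFD with drug 26) were all partners of rich ones. Without these 3, a choice made after the values were seen, 0 genes passed (603 at an unadjusted p under 0.05 in limma), the lymphoid median was -0.38, and Igkc, Ighm, Jchain and Cd74 differed by -1.05, -0.82, -0.99 and -0.41. Ccl21a overlapped fully, at 122, 357 and 730 TPM in 8 partners of rich libraries and a median of 427 TPM in 8 partners of poor ones.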

How the data were processed

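The labels' protocols name the RNeasy Mini Kit for RNA and NEBNext Ultra for the libraries. The deposited table gives TPM, scaled by the authors so that every library has the same total, and the unit was read from the values. The submitters' processing notes name build GRCm39, STAR 2.7.8 and featureCounts 2.0.3, with FastQC 0.11.9 and DESeq2 1.32.0. Annotation, strandedness and filters are not given in the sources used here. Values below a few reads are imprecise at about 4.84 to 8.05 M reads (M, 1000000) per library labelled visceral. That depth was approximated from the steps of low TPM values and the exon lengths of another build, and 49067 of 55270 genes had a length.

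Values were analysed as log2(TPM + 1), which understates differences of low genes. Genes with at least 10 TPM in at least 5 libraries entered limma 3.58.1 (R 4.3.3; trended, robust empirical Bayes), after the steps were tested on simulated data. Benjamini-Hochberg adjustment covered every gene in the fit, and the threshold was 0.05. Exact and permutation tests used scipy 1.17.1. Named genes were the 12 largest increases and decreases with a mean of at least 20 TPM, a set list of lymph node, fat and muscle genes, and members of 35 gene lists (385 genes, 216 of them in 18 lymphoid lists). Genes outside that rule, such as Fut7, Grem1, Prox1, Ebf1, S1pr1, Rag1 and H2-Aa, were chosen after their values were seen. The members, the Glycam1 threshold and the lists were chosen with earlier results of these data known. Alternatives were other pseudocounts, filters, thresholds, normalizations, library weights and covariates, and leaving out each library. Values of some genes are not reported here.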

Additional observations from a re-analysis of the deposited data

Results flagged for a closer look

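Samples far from the others of their class were sought by Dixon's test in 116 groups of 10 libraries, for 58 of the named genes in each class. A single library stood apart in 28 of them. The groups reuse the same 20 libraries over genes that move together, so the 28 are not independent and cannot be set against a chance rate. Of the poor libraries, HFD with drug 62 was the one apart for most genes, always on the side of the rich libraries for lymphoid genes. Its B cell genes were Cd79a at 18.5, Cd79b at 24.9, Ms4a1 at 4.12, Ighd at 14.6, Ly6d at 21.2, Spib at 6.37 and Tnfrsf13c at 4.92 TPM. Its switched heavy chains were Ighg2c at 33.3 and Ighg1 at 3.49 TPM. T cell and homing genes in it were Cd3e at 4.20, Cd4 at 5.14, Cd8a at 10.01, Tcf7 at 4.94, Foxp3 at 0.61 and Ccr7 at 6.61 TPM. Stromal, lymphotoxin and antigen presentation genes in it were Ccl19 at 13.1, Chst4 at 0.10, Cr2 at 0.79, Marco at 4.22, Ltb at 36.3, Lta at 2.87 and H2-Ob at 4.83 TPM. These values lay between those of the other 9 poor libraries and the lowest rich ones. The same library stood apart for fat genes, with Adipoq at 937, Plin1 at 271 and Ucp1 at 192 TPM.

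Outside HFD with drug 62, the poor library normal with drug 2 was apart for Cd74, at 182 TPM, the lowest of its class. The rich library HFD with drug 27 was apart for Marco, at 11.7 TPM, the lowest of its class, and for the muscle gene Pygm, at 200.3 TPM, the highest of its class.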

How the results depend on the processing

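In the description of rich against poor libraries, the count of genes higher moved from 2615 to 5967 with no filter, to 1492 with quantile normalization and to 1658 with a covariate for muscle transcripts. The count of genes lower moved from 935 to 3082 with quantile normalization, to 1798 without mitochondrially encoded genes, to 390 with the muscle covariate and to 606 with lymphoid genes removed and the rest rescaled; the causes were not tested. Without each library in turn, 2275 to 2791 were higher and 642 to 1248 lower. Pecam1, which did not pass, changed sign, to 0.10 at a Glycam1 threshold of 50 TPM and without HFD 23, 0.031 with library weights, 0.021 with lymphoid genes removed and 0.035 without the 2 libraries nearest the threshold. It was -0.24 with quantile normalization, where it passed as lower (adjusted p = 0.0325, limma), and -0.11 to 0.10 without each library in turn.

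The genes called in HFD against normal fell from 693 to 1 in the poor libraries alone, where fewer libraries were fitted, and were 245 to 1017 without each library in turn. For HFD with drug against HFD the count of 402 became 198 with the class as a term, 16 in the poor libraries alone, 87 with no filter and 0 to 853 without each library in turn. Normal with drug against normal called 0 genes without each library in turn. At Glycam1 thresholds of 5 and 50 TPM the exact test of class by treatment gave p = 0.405 and 0.226.

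No paired analysis was possible because the 4 treatments labelled visceral share no title numbers. Depth limits genes of a few TPM.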

Other observations

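The 20 libraries labelled subcutaneous, which held at most 0.193 TPM of Glycam1, were not without lymphoid RNA. Their summed B cell list ran from 550 through 1984 to 6354 TPM, a median above the 1505 TPM of the highest poor library, and their summed T cell list from 72.6 through 92.9 to 180 TPM, within the range of the poor libraries. Igkc had a median of 1352 TPM and Cd79a of 7.56 TPM in them. Interferon-induced genes summed to 1151 TPM in the rich library normal with drug 9, beside a rich median of 457 TPM. Red blood cell and mast cell genes, which a node or blood could bring, called 0 of 4 and 0 of 4 tested members either way between rich and poor libraries in limma, and all members overlapped.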
